A study of Drosophila melanogaster with 5 samples.

Results

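Mediator is a large complex that carries signals from gene-specific transcription factors to RNA polymerase II. Its head and middle modules contact the polymerase, its tail receives most activators, and a kinase module made of kto (MED12), skd (MED13), CycC and Cdk8 binds reversibly and can keep the polymerase away. In Drosophila, kto and MED24 have been linked to the steroid-triggered destruction of the larval salivary gland, and MED23 and MED16 to the heat shock and immune responses. The genes described here were selected by their annotated symbol, which had to be MED followed by a digit, or kto, skd, CycC or Cdk8, on a probe set with no other symbol. This gave 27 of the 18952 probe sets on the arrays, which stand for 26 genes. The set was picked out with the difference between the 2 groups of arrays already known, so its counts, folds and p-values describe the genes and support no statement about Mediator as a group. No threshold on a measured value was used to admit a gene, and all 27 probe sets passed the filter on dim signals.

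RNA came from dissected salivary glands of Drosophila melanogaster prepupae and was measured on 5 Affymetrix arrays. For 3 of them the labels give animals carrying P{hs-Fkh111}, a transgene that places fork head (fkh), a forkhead transcription factor of the gland, under a heat-inducible promoter. The other 2 came from w1118 animals, a white-eyed strain, written w1118(3) in the titles with no explanation. All animals of both groups were grown at 25 °C and given a heat shock of 30 min at 37 °C beginning 9.5 h after puparium formation. Glands were taken at 14 h. A heat-inducible promoter acts in the whole animal and not in the gland alone, and the labels do not say whether the transgenic strain shares the w1118 background. The study, by its title, looked for genes responsive to Fork head in these glands. The submitters call the arrays of a group biological replicates. The age of the animals is given only as hours after puparium formation.

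The fkh probe set went against the labels. It read 41.5, 47.0 and 58.3 in the 3 arrays labelled as fkh-expressing and 130 and 120 in the w1118 arrays, with a log2 fold of -1.13 (limma adjusted p = 0.0026). Where this probe set lies relative to the transgene is not known here, so the groups are called the Fkh-labelled arrays and the w1118 arrays, and directions depend on these labels being right. Median intensities were 44.5 to 49.3 in the 5 arrays. Signal at the 3' end of a transcript over that at its 5' end tracks the quality of RNA and labelling. For actin it was 2.47 and 2.54 in the w1118 arrays, against 4.94, 4.30 and 3.37 in those labelled Fkh. For eIF-4a it was 1.53 and 1.55 against 2.35, 1.81 and 1.68. For GAPDH it was 1.156 and 1.145 against 1.556, 1.136 and 1.109, so there the groups overlapped. Each time the third Fkh-labelled array was the lowest of its group. Its bioB control signal was 752, beside 701 and 636 for w1118, whereas Fkh-labelled array 1 had 424 and array 2 had 437. Whether this split within the group bears on the values below was not tested. Of 14 salivary gland markers measured, 10 were higher and 1 lower in the Fkh-labelled arrays. Their summed intensity was 68704 to 69646 there and 25923 to 29751 in the w1118 arrays. Of 5 measured fat body markers 3 were lower, with sums of 11583 to 12987 against 21637 to 22798. Of 7 haemocyte markers 5 were tested and 3 were lower, with sums of 509 to 664 against 1331 to 1528. NimC4, at 192 to 250 against 953 and 872, made up most of the w1118 sums. In Hml, Pxn, eater and Sr-CI the groups overlapped. Of 6 listed trachea and muscle markers 3 were measured, and they summed to 65.7 to 96.2 and 61.9 to 79.1. These sums join opposite directions. The tracheal marker btl read 43.8 to 66.0 against 41.4 and 22.8. The muscle marker Mlc2 read 8.7 to 11.5 against 13.1 and 15.4, and the muscle gene named up read 10.4 to 21.6 against 24.6 and 23.8. Both muscle markers were too dim to be tested. No measured marker was at 0 in every array. On the log2 scale the marker folds furthest from 0 were 6.79 for ng4 and -0.64 for Sgs8 (not called) in the gland list, -1.94 for Obp44a of fat body, -1.97 for NimC4 of haemocytes and 0.57 for btl of trachea (not called). In such bulk RNA, fewer cells of a type and less RNA per cell cannot be told apart, and the part of RNA quality and of other tissues in the values below was not tested.

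Mediator genes moved in both directions, and in the head module the direction differed between subunits. In the kinase module CycC was called higher and Cdk8 lower, but the call of Cdk8 depended on single arrays. Values are dChip intensities on a linear scale. A log2 fold is the mean log2(intensity + 16) of the Fkh-labelled arrays minus that of the w1118 arrays, and a gene is called when its limma adjusted p over all 11261 probe sets tested is under 0.05. Of the 26 genes, 11 were called higher and 3 lower in the Fkh-labelled arrays. Among all 8298 genes tested, 21.5% were called higher and 19.3% lower. In 13 Mediator genes every Fkh-labelled array lay above both w1118 arrays, and in 5 every one lay below. The shares of all genes were 32.5% and 32.8%. The median log2 fold of the 26 genes was 0.22, beside -0.010 over all genes, and their folds ran from -2.82 for MED27 to 2.07 for MED15. Without w1118 array 1 the called genes were 5 higher and 2 lower, and without Fkh-labelled array 1 they were 7 higher and 2 lower.

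**Figure D1:**
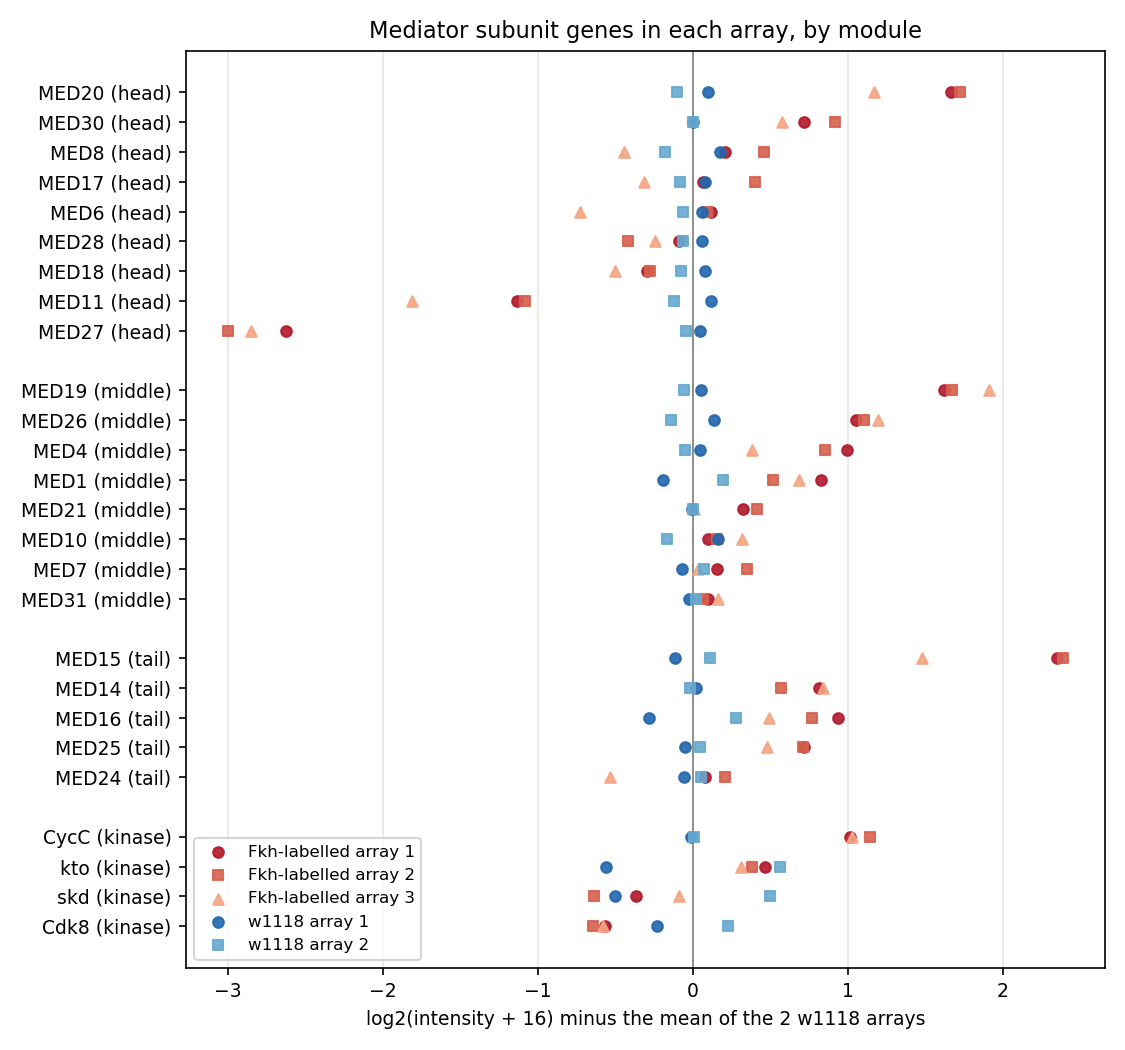
Each point is 1 array, and its position on the x axis is log2(intensity + 16) minus the mean of the 2 w1118 arrays, for the probe set that stands for each of the 26 Mediator genes, ordered by module and fold. MED27 and MED11 lie to the left of both w1118 arrays in all 3 Fkh-labelled arrays, MED15, MED19 and MED20 to the right, and kto and skd have w1118 arrays that lie far apart.

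The head held the largest fall and one of the largest rises of the complex. MED27, a head or upper tail subunit depending on the source, read 34.8, 23.1 and 27.4 in the Fkh-labelled arrays, against 306 and 287 in the w1118 arrays. All 3 Fkh-labelled values are near the dimmest signals tested, while both w1118 values lie far above them. The means were 28.5 ± 5.9 (SD, n = 3) and 297 ± 14 (SD, n = 2), a log2 fold of -2.82 ± 0.17 (SE, limma adjusted p = 5.0e-05). Of the 8298 genes tested, 104 had a lower fold. MED27 passed the filter on dim signals through its w1118 values, since its Fkh-labelled mean lay under the filter's cutoff of 33.2 in intensity, the only such case among the 26 genes. With no filter the adjusted p was 6.0e-05. The size of the fall is less certain than its direction. It was -3.36 with a constant of 1 and -1.97 with 64, and -2.67 with the Fkh-labelled mean set to the cutoff.

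MED11, a small subunit that pairs with MED22 at the base of the head, was the other head gene called lower. It read 337, 349 and 204 in the Fkh-labelled arrays, against 824 and 695 in the w1118 arrays. The groups were well separated, and the third Fkh-labelled array was the lowest of all. The log2 fold was -1.34 ± 0.25 (SE, limma adjusted p = 0.0066), and without w1118 array 1 the adjusted p was 0.053.

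MED20 moved the opposite way. This subunit forms a pair with MED18 at the jaw of the head. It read 242, 252 and 167 in the Fkh-labelled arrays, against 71.4 and 59.9 in the w1118 arrays, so that even its lowest Fkh-labelled value was more than both w1118 values added together. The log2 fold was 1.52 ± 0.21 (SE, limma adjusted p = 0.0019). Its partner MED18 read 160, 163 and 136 against 212 and 189, with a log2 fold of -0.36 (limma adjusted p = 0.12). All 3 Fkh-labelled values of MED18 were below both w1118 values, but the difference did not pass the threshold.

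MED30, which has no counterpart in budding yeast, was the second head gene called higher, at 258, 298 and 232 against 150 and 150. The log2 fold was 0.74 ± 0.16 (SE, limma adjusted p = 0.012). The adjusted p was 0.067 without w1118 array 1 and 0.063 without w1118 array 2.

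The central head subunits gave no call. MED17, the scaffold of the head, had means of 1002 ± 248 (SD, n = 3) and 947 ± 76 (SD, n = 2). MED6 and MED8, both needed for the contact with the polymerase in yeast, had log2 folds of -0.17 and 0.074. In these 3 genes the groups overlapped, and in each the third Fkh-labelled array was the lowest of the 5. MED8 read 826, 986 and 519 in the Fkh-labelled arrays. MED28 had a log2 fold of -0.25 (limma adjusted p = 0.27), with all 3 Fkh-labelled values, 60.1 to 79.5, under both w1118 values, 81.2 and 89.9.

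Over the 9 head genes, 2 were called higher and 2 lower, beside 21.5% and 19.3% of all genes. The median log2 fold of the head was -0.17. The sign of that median rested on the third Fkh-labelled array, without which it was 0.11. The third Fkh-labelled array was the lowest of its group in 7 of these 9, beside 47.3% of all genes tested. This was not particular to the head. That array was also the lowest in 4 of 5 tail genes and in 29 of the 46 machinery genes compared below. In the middle it was the lowest in 3 of 8 genes and in the kinase module in 1 of 4. The median difference of that array from the mean of the other 2 was -0.52 for the head and -0.059 over all genes. It was -0.36 for the tail, 0.047 for the middle, -0.015 for the kinase module and -0.18 for the machinery. The fly gene ix, listed as MED29 in the literature but not selected by the symbol rule, read 176, 156 and 149 against 252 and 220, a log2 fold of -0.51 (limma adjusted p = 0.041). The head subunit MED22 was not analysed here.

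**Figure D2:**
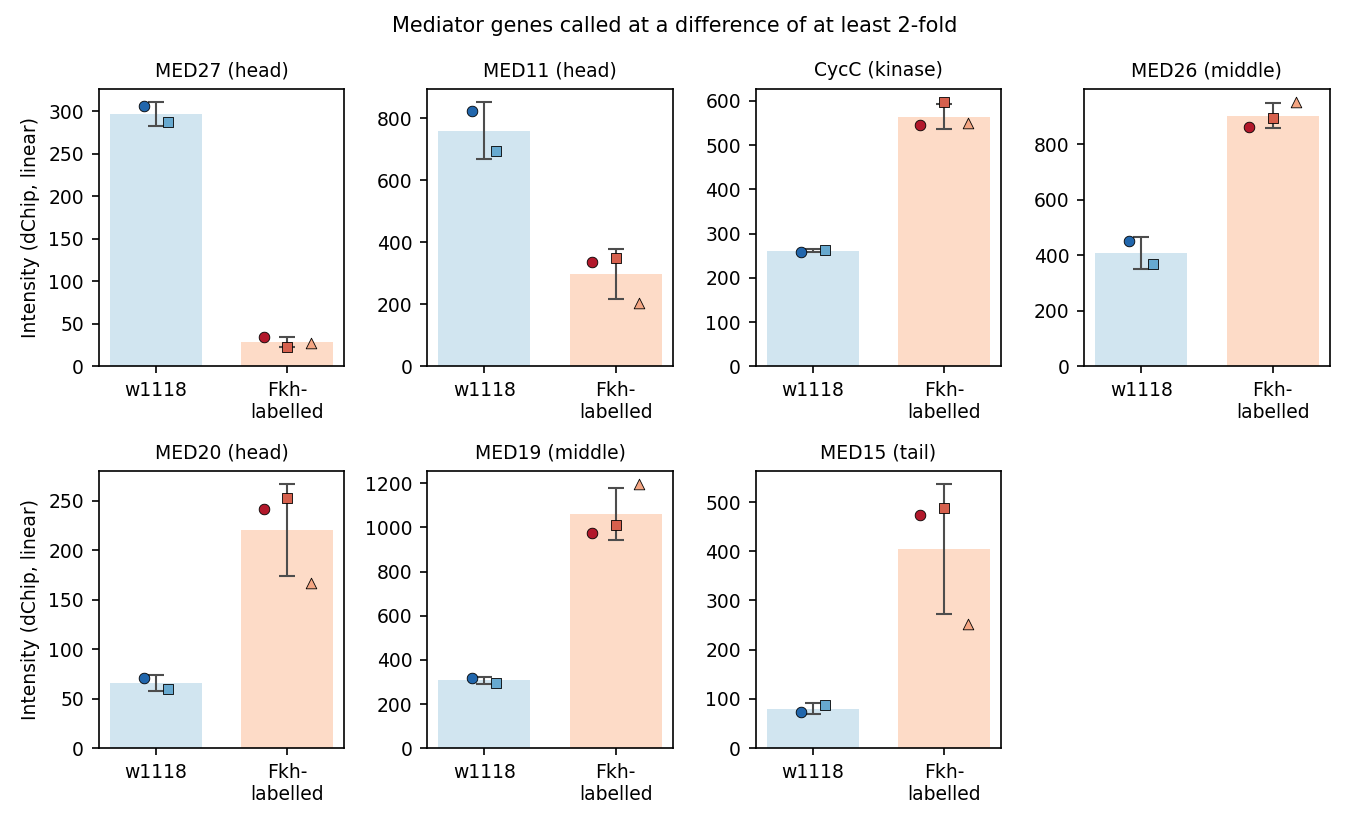
Bars are mean intensities with SD, starting at 0, for w1118 arrays (n = 2) and Fkh-labelled arrays (n = 3), and points are single arrays (circle array 1, square array 2, triangle array 3), for the 7 Mediator genes called with a log2 fold of at least 1 in size. MED27 and MED11 were lower and CycC, MED26, MED20, MED19 and MED15 higher in all 3 Fkh-labelled arrays, and the third array stands apart in MED11, MED20 and MED15.

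Where middle module genes changed, they rose. MED19, a subunit that binds Hox proteins in the fly, read 975, 1012 and 1197 in the Fkh-labelled arrays, against 319 and 294 in the w1118 arrays. The smallest Fkh-labelled value was far above both w1118 values. The log2 fold was 1.73 ± 0.16 (SE, limma adjusted p = 0.00033). MED26, which in human cells recruits elongation factors, read 861, 894 and 951 against 450 and 368, a log2 fold of 1.12 (limma adjusted p = 0.0021). For both genes the Fkh-labelled arrays agreed closely, with SDs of 119 and 45.5, and the third array was the highest, unlike in the head.

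MED4 and MED1 were also called higher, from dim w1118 signals. MED1, which binds nuclear hormone receptors in mammals, read 127, 98.7 and 113 against 54.2 and 75.8, a log2 fold of 0.68 (limma adjusted p = 0.028). MED4, a core subunit of the middle, read 175, 157 and 109 against 82.8 and 76.5, a log2 fold of 0.74 (limma adjusted p = 0.033). Both depended on single arrays. The adjusted p of MED1 was 0.17 without w1118 array 1 and 0.090 without Fkh-labelled array 1. That of MED4 was 0.093 and 0.092 without the first and the second Fkh-labelled array, and 0.11 and 0.14 without the first and the second w1118 array.

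The remaining middle genes differed little. MED21 and MED7, partners in a pair that hinges the middle module, had log2 folds of 0.25 and 0.18 (limma adjusted p = 0.30 and 0.42). MED10 and MED31, a small conserved subunit, had 0.19 and 0.11. The intensities of MED31 were 555 to 595 in the Fkh-labelled arrays, against 522 and 538 in the w1118 arrays, so that the groups came close to each other without overlapping. Of the 8 middle genes, 4 were called higher and 0 lower, at limma adjusted p under 0.05. The shares of all genes were 21.5% and 19.3%. At an unadjusted p under 0.05 the count of middle genes lower was also 0. The median log2 fold was 0.46. All 8 folds were positive as deposited, but that of MED31 was -0.038 after quantile normalization. MED9 was not analysed here, since its probe sets carry a second gene symbol.

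In the tail, MED15 rose most of all Mediator genes. This subunit is a target of activators from yeast to flies, where it serves Smad signalling. It read 474, 487 and 252 in the Fkh-labelled arrays, against 72.9 and 88.0 in the w1118 arrays. The third array lay between the other two and the w1118 pair, and all 3 were far above that pair. Means were 80.4 ± 10.7 (SD, n = 2) for w1118 and 405 ± 132 (SD, n = 3) for Fkh-labelled arrays. This gave a log2 fold of 2.07 ± 0.30 (SE, limma adjusted p = 0.0021), and 388 of 8298 genes had a higher fold.

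The backbone of the complex rose less. MED14, which joins head, middle and tail, read 575, 482 and 586 against 324 and 315, a log2 fold of 0.74 ± 0.16 (SE, limma adjusted p = 0.011). The adjusted p was 0.057 without w1118 array 1 and 0.062 without w1118 array 2. MED16, a coactivator of the immune factor DIF in the fly, read 334, 295 and 241 against 134 and 206, and MED25, an activator-binding subunit, read 260, 258 and 217 against 146 and 157. Their log2 folds were 0.73 and 0.64 (limma adjusted p = 0.042 and 0.019). MED16 had an adjusted p of 0.24 without w1118 array 1, 0.12 without Fkh-labelled array 1 and 0.10 without Fkh-labelled array 2. Its fold was 0.45 without w1118 array 1 and 1.01 without w1118 array 2, against 0.63 to 0.85 without an Fkh-labelled array. MED25 had 0.068 and 0.066 without the first and the second Fkh-labelled array, and 0.10 and 0.068 without the first and the second w1118 array.

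MED24, one of the subunits linked to destruction of the gland, did not pass. It read 184, 203 and 115 in the Fkh-labelled arrays, against 167 and 181 in the w1118 arrays, so that the groups overlapped, and its log2 fold was -0.081 ± 0.24 (SE, limma adjusted p = 0.81). Of the 5 tail genes, 4 were called higher and 0 lower, beside 21.5% and 19.3% of all genes. At an unadjusted p under 0.05 the count of tail genes lower was also 0. The median log2 fold of the tail was 0.73. In the third Fkh-labelled array alone, a setting added after seeing the data, that median was 0.49. With MED27, MED28 and MED30 placed in the tail and MED14 and MED26 in no module, as in some sources, the medians were -0.060 for the head, 0.25 for the middle and 0.64 for the tail, and the fall of MED27 then belonged to the tail. MED23 was not analysed here, since its probe sets carry a second gene symbol.

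The catalytic pair of the kinase module was called in opposite directions, though the call of Cdk8 depended on single arrays. CycC, the cyclin, read 546, 597 and 549 in the Fkh-labelled arrays, against 260 and 264 in the w1118 arrays. The groups were far apart beside the spread within them, with a log2 fold of 1.06 ± 0.14 (SE, limma adjusted p = 0.0016). Cdk8, the kinase that CycC activates, read 97.8, 91.8 and 96.5 against 127 and 181. All 3 Fkh-labelled values were below both w1118 values, and the log2 fold was -0.59 ± 0.18 (SE, limma adjusted p = 0.040). This call was lost without Fkh-labelled array 1, 2 or 3 or w1118 array 2, with adjusted p of 0.093, 0.11, 0.057 and 0.22. The fold stayed between -0.61 and -0.57 without an Fkh-labelled array, but was -0.36 without w1118 array 2 and -0.83 without w1118 array 1.

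The other kinase module genes, kto and skd, encode the large subunits that tether the kinase to Mediator and act together in fly eye and wing development. Neither was called, and both differed more between the w1118 arrays than between the groups. The kto signal was 167 in w1118 array 1 and 383 in w1118 array 2, while the Fkh-labelled arrays read 357, 337 and 319. The skd signal was 219 and 453 in the same w1118 arrays and 241, 198 and 296 in the Fkh-labelled arrays, and its second probe set, at 89.7 and 239 against 98.8, 66.9 and 152, showed the same gap. In each case w1118 array 2 was the highest of the 5 arrays.

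The gap between the w1118 arrays was 2.29-fold for kto and 2.08-fold and 2.66-fold for the probe sets of skd. Of the genes tested, 1.59% had a wider gap than kto and 2.41% a wider one than skd. For Cdk8 the gap ran the same way, at 1.42-fold, and for CycC it was 1.02-fold. The log2 folds of kto and skd therefore depended on which w1118 array was used. The fold of kto was 0.95 (limma adjusted p = 0.022) without w1118 array 2 and -0.17 (adjusted p = 0.56) without w1118 array 1. The fold of skd was 0.14 (adjusted p = 0.74) without w1118 array 2 and -0.86 (adjusted p = 0.071) without w1118 array 1. The median log2 fold of the 4 kinase module genes was 0.012 with all arrays, -0.50 without w1118 array 1 and 0.54 without w1118 array 2.

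**Figure D3:**
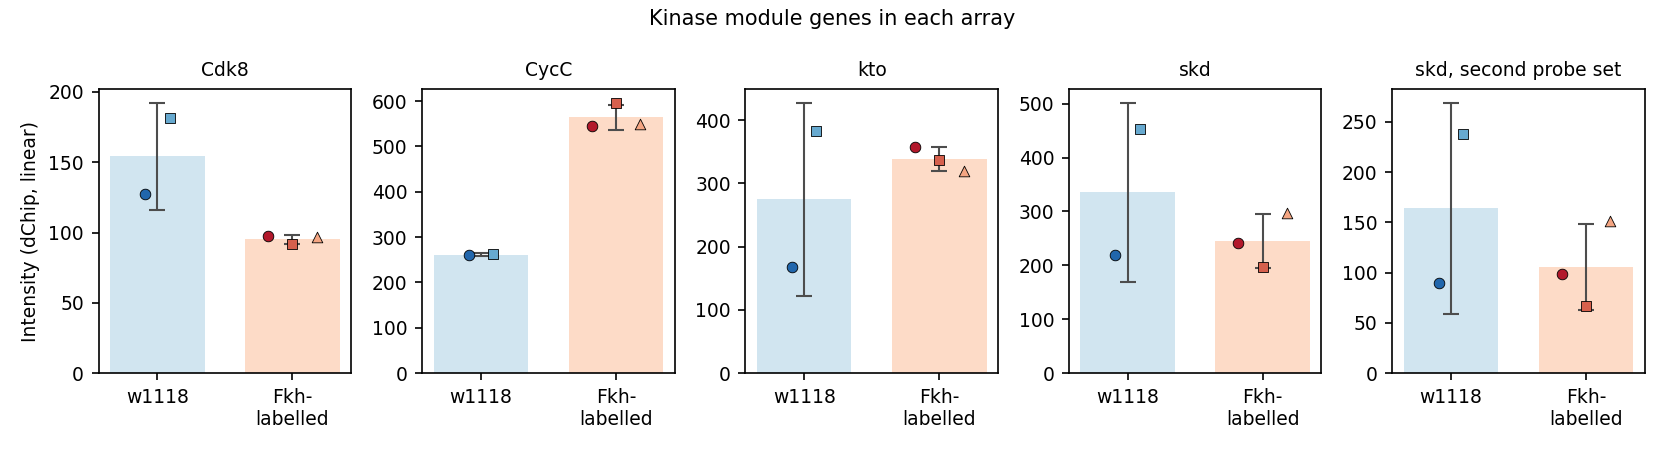
Bars are mean intensities with SD, starting at 0, for w1118 arrays (n = 2) and Fkh-labelled arrays (n = 3), and points are single arrays (circle array 1, square array 2, triangle array 3), for the 4 kinase module genes and the second probe set of skd. CycC was higher and Cdk8 lower in all 3 Fkh-labelled arrays, and w1118 array 2 was the highest array for kto and for both probe sets of skd.

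Partner subunits were compared directly through the log2 ratio of their probe sets within each array; levels of different probe sets are not comparable, but the change of their ratio between groups is. The 4 pairs were chosen after their values were seen. The change of a ratio is the difference between the log2 folds of the 2 partners given above, so it is not separate evidence for them. The ratio of MED20 to MED18 was 0.27 to 0.59 in the Fkh-labelled arrays and -1.43 to -1.38 in the w1118 arrays, a change of 1.88. The ratio of CycC to Cdk8 was 2.30 to 2.51 and 0.50 to 0.94, a change of 1.66. For these pairs the groups did not overlap and the gap was several times the spread within a group. The ratio of kto to skd changed by 0.75, from -0.36 to -0.23 in the w1118 arrays to 0.10 to 0.72, also without overlap. The ratio of MED7 to MED21 was 0.41 to 0.60 and 0.51 to 0.64, and the groups overlapped. The exact two-sided permutation p was 0.20 for the first 3 pairs and 0.60 for the last, with 0.27 and 0.60 after Benjamini-Hochberg adjustment over the 4. With 3 against 2 arrays 0.20 is the smallest p this test can give.

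MED27, MED15, MED19, MED20, MED26 and CycC were called in each of the 5 fits that left out 1 array. These were 5 rises and 1 fall of the 14 calls. Under the other planned settings the calls of Cdk8, MED1, MED4 and MED16 were lost at least once, with adjusted p of up to 0.076, 0.080, 0.053 and 0.064. Several probe sets, those of MED6, MED26, MED31 and skd, have names ending in _s_at, which marks probes shared between transcripts.

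The genomic neighbours of the subunit genes were found from gene coordinates alone, without strand or the positions of the probes. In the RefSeq gene table, 13 of the 26 Mediator genes overlap another protein-coding gene, among them 5 of the 14 called. The share of all genes that do so was not counted. Around MED27, the overlapping gene CG2182 had a log2 fold of 0.25, and the adjacent genes elm and Wdr33 had 0.47 and 0.61. Around MED11, the overlapping gene Nufip had -0.38 and its neighbour Atg3 had -0.22, neither of them called. The gene CG13893, which overlaps MED14, had a log2 fold of 4.86 (limma adjusted p = 9.7e-06). Alg11, which overlaps MED1, had a log2 fold of 0.98 (limma adjusted p = 0.0039). MED15, MED19, MED20 and MED26 overlap no other protein-coding gene in that table. The gene CG33332, which overlaps CycC, had -0.70 (adjusted p = 0.15). Of 19 tested genes that lie next to 1 of the called subunit genes without overlap, 11 were not called. Among all genes tested, 21.5% were called higher and 19.3% lower. Of the adjacent genes, 4 were called in the direction of the subunit and 4 in the other direction. The first 4 were CG4297 beside MED15 with a log2 fold of 1.52, ORMDL beside MED1 with 2.12, CG14830 beside MED4 with 1.32 and CG11275 beside MED16 with 0.91 (limma adjusted p = 0.00079, 0.00036, 0.047 and 0.049). The second 4 were elm and Wdr33 beside MED27, poe beside MED20 with -1.14 and Rev1 beside MED30 with -0.60 (limma adjusted p = 0.045, 0.018, 0.0021 and 0.034). Whether signal from any neighbour reaches the probe set of a subunit was not tested.

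The machinery that Mediator acts on was listed for comparison, and 46 of its 58 genes were tested. Of these 12 were called higher and 9 lower, with a median log2 fold of 0.11, beside 21.5% and 19.3% of all genes. RNA polymerase II subunits gave 2 calls among 6, both higher. Polr2K, a small shared subunit, had w1118 and Fkh-labelled means of 551 ± 30 (SD, n = 2) and 2165 ± 262 (SD, n = 3). Its log2 fold was 1.94 (limma adjusted p = 0.00024). Its 3 Fkh-labelled arrays were all far above both w1118 arrays. The larger subunits Polr2A and Polr2B were not analysed here.

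Among 21 genes listed as general transcription factors, TfIIS included, 5 were higher and 5 lower. For this and the group counts below, the shares of all genes called were 21.5% higher and 19.3% lower. Taf10 and Taf10b, paralogous subunits of TFIID and SAGA-type complexes, had log2 folds of 3.65 and 1.68 (limma adjusted p = 1.9e-05 and 0.00089). Trf2, a relative of the TATA-binding protein, had a log2 fold of -1.08 (limma adjusted p = 0.0042), and Taf13, a TFIID subunit, had -0.70 (limma adjusted p = 0.012). Of 8 subunits of TFIIH, the factor that opens the promoter and whose kinase Mediator stimulates, 4 were lower and 1 higher, with a median of -0.56. Ssl1 and Tfb4, core TFIIH subunits, had log2 folds of -1.05 and -0.98 (limma adjusted p = 0.0040 and 0.0079). Both were below the w1118 values in each Fkh-labelled array, where the signal of Tfb4 was dim, at 31.0 on average. Tfb4 and mrn, another TFIIH gene called lower, passed the filter only through their w1118 values, which bears on the count of 4. With no filter the limma adjusted p of Tfb4 was 0.014 and that of mrn was 0.045. With their Fkh-labelled means set to the filter's cutoff their log2 folds were -0.90 and -0.36. Tfb1 was also among the 4, with a limma adjusted p of 0.047, and with no filter it was 0.086. Of 11 elongation genes 4 were higher and 0 lower, with 0 lower also at an unadjusted p under 0.05. Nelf-E, a subunit of the pausing factor NELF, had a log2 fold of 2.19 (limma adjusted p = 8.1e-05). Without w1118 array 2 the whole list gave 5 higher and 3 lower, and without w1118 array 1 it gave 7 and 4.

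**Figure D4:**
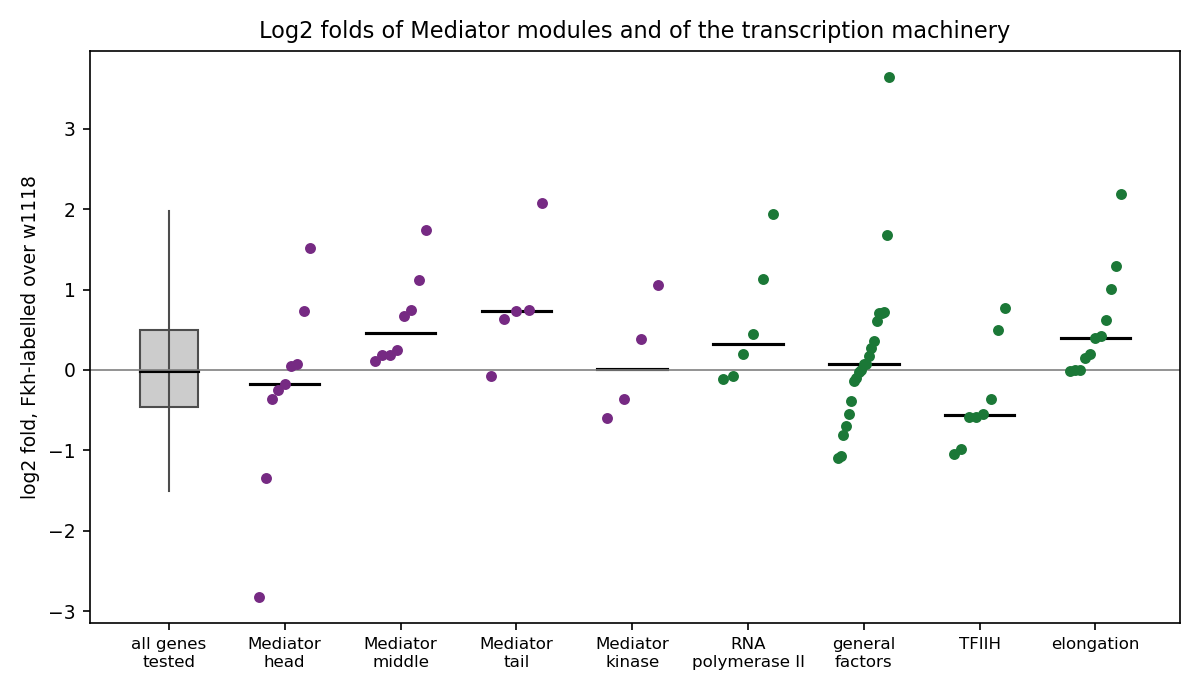
The y axis is the log2 fold of the Fkh-labelled over the w1118 arrays. The box shows the quartiles of all 8298 genes tested with the median and lines to the 5th and 95th percentiles, points are single genes, and black bars are group medians, which lie at -0.17, 0.46, 0.73 and 0.012 for the Mediator head, middle, tail and kinase modules.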

How the data were processed

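The deposited values are intensity values of probe sets. The authors computed these intensities in dChip, scaling every array to a shared baseline (median 134), per the labels and the design text deposited with them. No version, expression model or background step of dChip is stated there. Intensity was taken as linear from the range of the values. Probe sets were named from the platform annotation: 13647 of the 18769 non-control probe sets carry 1 symbol. No genome was given, and promoter motifs and sequences were not analysed here.

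Values were transformed as log2(intensity + 16), kept where the mean over all arrays exceeded the 40th percentile (11261 probe sets), and fitted in R 4.3.3 by lmFit and eBayes of limma 3.58.1 (two-sided, 3 residual degrees of freedom) with Benjamini-Hochberg adjustment and a threshold of 0.05. Low values are compressed by the constant. A gene is its brightest kept probe set of 1 symbol. The code was tested on simulated data. The number of arrays limits the precision.

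Members, modules, the transcription list and markers were chosen with earlier results of these data known. Named were all members, fkh, ix, the markers with the largest change and up to 4 machinery genes with the smallest p in each direction. The genomic neighbours, the check against the filter's cutoff and the subunit pairs were chosen after values were seen. Alternatives changed the constant, filter, normalization, variance model, replicate block, probe sets, module assignment and arrays used.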

Additional observations from a re-analysis of the deposited data

How the results depend on the processing

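Of the other settings, changes of the constant, filter, scaling, variance model and block kept the numbers of Mediator genes called higher (8 to 11) and lower (2 to 4) within 1.5 times, and MED18 was called lower after quantile normalization (adjusted p = 0.044). The median log2 fold of the Mediator genes was 0.065 after quantile normalization and 0.35 with the replicate block. Only the third Fkh-labelled array carries the number 3, so the block takes that array out of the folds. The folds with the block are therefore those without that array, and not a separate check. The block lowered the counts to 10 and 2. Same-numbered arrays correlated at 0.077 and -0.11 in their deviations from group means. With 2 w1118 arrays these deviations mirror each other, so the correlations cannot tell whether the numbers pair the arrays. The main fit did not pair them. With 1 array left out, 2820 to 4890 probe sets were called, Mediator genes called higher numbered 5 to 11 and lower 2, machinery genes higher 5 to 15 and lower 3 to 9, and the Mediator median was 0.19 to 0.35. With the third Fkh-labelled array alone, 2734 probe sets, 6 Mediator genes higher, and 7 machinery genes higher and 2 lower were called. Uncalled folds changed sign: after quantile normalization MED17 (-0.11), MED31 (-0.038) and MED8 (-0.082), with the block MED24 (0.14) and MED6 (0.11), and, using no other Fkh-labelled array than the third, MED17 (-0.31), MED8 (-0.44) and the second skd probe set (0.032). With 1 array left out, the folds were -0.12 to 0.23 for MED17, -0.12 to 0.33 for MED8, -0.23 to 0.14 for MED24, -0.32 to 0.11 for MED6, -0.17 to 0.95 for kto, -0.86 to 0.14 for skd and -1.12 to 0.15 for its second probe set. The cause was not tested. A fit with a lone array assumes that it varies like the other group; for the third Fkh-labelled array alone the spread comes from the w1118 pair, so those counts carry little weight. The head median was 0.11 with the block, as without the third Fkh-labelled array, and the middle median 0.34 with a constant of 64. The 3 against 2 arrays limit what small changes can be called.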
